A study of Mus musculus with 20 samples.

Results

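Forebrain slices labelled knockout (KO) for Tnfaip6 were compared with wild-type (WT) slices after 4 h in 5% horse serum, across every gene of the deposited 4 h table. Tnfaip6 encodes TSG-6, and the labels write the genotypes as TSG-6-/- and TSG-6+/+. The comparison rests on 3 KO-labelled and 3 WT libraries, 6 of the 20 libraries of the series, chosen by the genotype and time in their labels. The other 14 libraries are slices kept for 24 h in the same serum, 8 KO-labelled and 6 heterozygous (Het) of both sexes, and are used here only as a second set of values. All slices were cut from mouse pups at postnatal day 4, and all were exposed to serum, so no value here describes slices without it. RNA was sequenced from SMART-Seq v4 libraries. No label gives the deleted part of Tnfaip6 or ties a library to an animal. The p-values therefore describe variation among these 6 libraries, which may be partly technical.

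TSG-6 is a secreted protein that binds hyaluronan, the long sugar chain of the extracellular matrix, and moves protein heavy chains from inter-alpha-inhibitor onto it during inflammation. Serum itself is a classic stimulus: within minutes it switches on immediate early genes such as Fos and Egr1 through kinase signals that reach the serum response factor and CREB at their promoters. In neurons the same genes also answer to electrical activity. Many of their products are transcription factors, and their transcripts are short lived.

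The KO label was not seen as a loss of transcript. Tnfaip6 (ENSMUSG00000053475, chr2:52038009-52056686, plus strand in GRCm38) had 40.6, 73.2 and 83.3 normalised reads in the KO-labelled libraries, against 67.2, 92.6 and 84.4 in the WT libraries. The groups overlap, KO 2 and KO 3 lying above WT 1. The log2 fold change was -0.36 ± 0.25 (SE), with a limma adjusted p of 0.563. The libraries are therefore called KO-labelled, and every direction below rests on that label. KO 1 and WT 1 held Xist at 2584 and 4999 normalised reads with at most 2 reads of the Y-linked Ddx3y, while the other 4 libraries held Ddx3y at 745 to 875, so each group holds 1 library with the female pattern and the rest with the male one. Of the forebrain markers, Dlx2, a factor of ventral progenitors, lay at 445 to 661, and Neurod6, a factor of cortical neurons, at 1418 to 2089 in KO-labelled libraries; in WT libraries they lay at 561 to 687 and 1195 to 1404. In bulk slices, fewer cells of a type and less RNA per cell cannot be told apart.

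Across the transcriptome the groups were close. Of 15181 genes with a mean of at least 10 normalised reads, 7 passed an adjusted p of 0.05 (0.0461% of genes tested), 2 of them higher in KO-labelled slices (0.0132%) and 5 lower (0.0329%). With the replicate number of the titles as a block, which compares KO 1 with WT 1, KO 2 with WT 2 and KO 3 with WT 3, 38 genes passed (0.25%), 11 higher and 27 lower, the 7 among them. No label says what libraries of one number share, so every blocked value here rests on an assumed pairing. Without 6 sex-linked genes, deviations of same-numbered libraries from their group means correlated at only 0.0556, 0.0849 and 0.12. The median log2 fold change was 0.00, with 50.6% of genes above 0 and 49.4% below. An unadjusted p under 0.05 was reached by 2110 genes (13.9%), and 833 genes had a log2 fold change beyond 0.5 in either direction. The 3 KO-labelled libraries lay above all WT libraries for 10.1% of genes and below all of them for 8.88%. The first principal component carried 27.8% of the variance and did not separate the genotypes: KO 1, WT 1 and WT 3 lay on one side, with KO 2, KO 3 and WT 2 on the other. On the second component, with 24.2% of the variance, the KO-labelled libraries scored 3.54 to 26.0 and the WT libraries -22.6 to -5.26, with KO 2 and WT 1 nearest to 0.

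Among the 7 genes, 3 encode immediate early transcription factors, and all 3 were lower. Fos, a partner of Jun proteins in the AP-1 factor, had 2153, 2242 and 1703 normalised reads in the KO-labelled libraries, against 3891, 3843 and 2948 in the WT libraries. Nr4a1, an orphan nuclear receptor induced by serum and by activity, had 1071, 1102 and 974 normalised reads in the KO-labelled libraries, against 2184, 2148 and 1529.6 in the WT libraries. Egr1, a zinc finger factor, had 1538, 1528 and 1438 normalised reads in the KO-labelled libraries, against 2172, 1991 and 2164 in the WT libraries. For each of these the highest KO-labelled library stayed below the lowest WT library, and KO 3 and WT 3 were the lowest of their groups for Fos and Nr4a1. The log2 fold changes were -0.81 ± 0.11 for Fos (SE; adjusted p = 0.0161), -0.88 ± 0.11 for Nr4a1 (adjusted p = 0.0128) and -0.49 ± 0.07 for Egr1 (adjusted p = 0.0161). In linear terms Nr4a1 stood at 0.543 times, Fos at 0.571 times and Egr1 at 0.712 times its WT mean. The genes sit on different chromosomes, Fos at ENSMUSG00000021250, chr12:85473890-85477273, plus strand, Nr4a1 at ENSMUSG00000023034, chr15:101254269-101274795, plus strand and Egr1 at ENSMUSG00000038418, chr18:34859823-34864984, plus strand in GRCm38. None of the 27, 29 and 29 tested genes within 1 Mb of Fos, Nr4a1 and Egr1 passed the threshold. Without WT 1 (adjusted p = 0.116 to 0.191) or WT 2 (0.0617 to 0.14) none of these 3 passed, and Egr1 also missed the threshold without KO 3 (0.071) or WT 3 (0.0771).

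**Figure D1:**
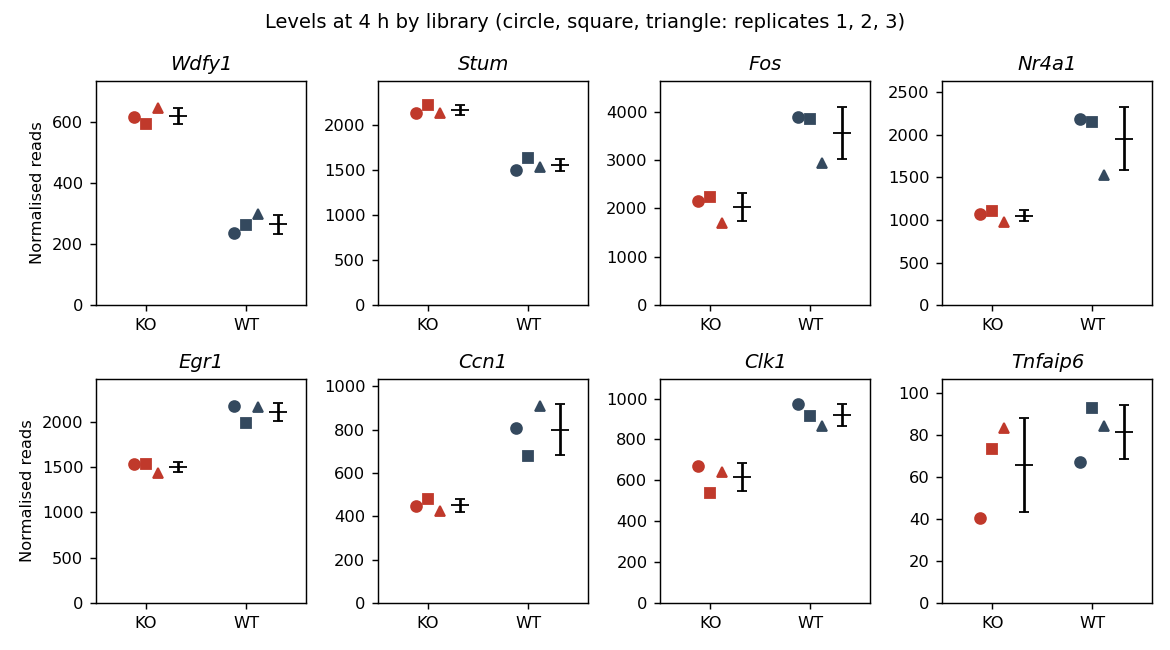
Normalised reads (vertical axis, linear from 0) of the 7 called genes and Tnfaip6 in each library, KO-labelled in red and WT in dark blue, with the mean and SD of the 3 libraries beside the points. For the 7 called genes the groups do not overlap, while for Tnfaip6 the KO-labelled libraries at 40.6, 73.2 and 83.3 overlap the WT libraries at 67.2, 92.6 and 84.4.

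The promoters of 3 of the 5 lower genes (Fos, Nr4a1 and Ccn1) and of Npas4, which passed with the replicate block, are shown because CREB-type factors, which serum and activity signals reach, bind the sequence TGACGTCA or its shorter core TGACG. The windows run from 250 bases before to 50 bases after the RefSeq gene start in GRCm38.p6, written 5′ to 3′ on the gene's strand, and capitals mark TGACG or its reverse complement CGTCA. They cover chr12:85473640-85473939 (plus strand) for Fos, chr15:101266596-101266895 (plus strand) for Nr4a1, chr3:145649936-145650235 (minus strand) for Ccn1 and chr19:4989922-4990221 (minus strand) for Npas4. Stum, which was higher in KO-labelled slices, is given as well, from chr1:180483455-180483754 (minus strand), although most tested genes with a promoter entry hold no TGACG. Egr1 and Clk1 are not shown.
Fos: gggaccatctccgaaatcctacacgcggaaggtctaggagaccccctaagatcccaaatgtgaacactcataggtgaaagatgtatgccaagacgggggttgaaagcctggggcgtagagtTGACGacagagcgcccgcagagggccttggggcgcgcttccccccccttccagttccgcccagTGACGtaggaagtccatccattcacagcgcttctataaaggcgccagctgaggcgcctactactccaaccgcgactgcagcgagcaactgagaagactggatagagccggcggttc
Nr4a1: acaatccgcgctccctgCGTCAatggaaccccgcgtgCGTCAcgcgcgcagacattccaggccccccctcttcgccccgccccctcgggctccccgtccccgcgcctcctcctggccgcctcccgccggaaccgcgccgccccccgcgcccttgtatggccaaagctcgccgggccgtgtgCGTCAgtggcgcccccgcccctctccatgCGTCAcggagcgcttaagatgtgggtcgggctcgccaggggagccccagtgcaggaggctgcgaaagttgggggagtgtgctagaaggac
Ccn1: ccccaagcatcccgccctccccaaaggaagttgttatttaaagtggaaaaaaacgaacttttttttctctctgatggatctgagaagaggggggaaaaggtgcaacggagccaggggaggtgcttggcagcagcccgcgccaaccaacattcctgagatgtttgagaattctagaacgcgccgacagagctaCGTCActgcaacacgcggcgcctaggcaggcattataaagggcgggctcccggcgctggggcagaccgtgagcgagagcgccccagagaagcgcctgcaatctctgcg
Npas4: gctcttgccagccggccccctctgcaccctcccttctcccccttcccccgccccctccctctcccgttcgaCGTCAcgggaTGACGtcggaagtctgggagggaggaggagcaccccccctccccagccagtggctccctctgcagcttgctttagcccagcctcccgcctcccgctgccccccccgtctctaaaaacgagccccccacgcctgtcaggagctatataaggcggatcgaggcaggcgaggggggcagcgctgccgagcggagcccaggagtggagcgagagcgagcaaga
Stum: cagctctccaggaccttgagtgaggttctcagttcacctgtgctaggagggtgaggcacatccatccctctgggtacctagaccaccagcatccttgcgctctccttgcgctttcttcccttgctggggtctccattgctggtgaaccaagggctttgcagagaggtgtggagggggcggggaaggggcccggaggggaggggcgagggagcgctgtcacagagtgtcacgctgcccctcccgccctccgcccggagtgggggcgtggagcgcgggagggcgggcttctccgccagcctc
TGACG on either strand stood 2 times in the Fos window, 4 times in that of Nr4a1, 1 time in that of Ccn1, 2 times in that of Npas4 and 0 times in that of Stum. The Fos copies begin 129 and 66 bases before the gene start, and those of Nr4a1 lie between 233 and 40 bases before the RefSeq start used here. That Nr4a1 window lies inside the gene span given above, which begins at chr15:101254269. The sequence before that earlier start was not searched. Of the 27 immediate early transcription factor genes listed here, 21 had a promoter entry and 15 of these held TGACG (71.4%). The share was 34.3% among the 11428 tested genes with an entry and 23% among all 27025 promoters. On the list, Egr2 with a log2 fold change of -0.05 held TGACG, while Jun at -0.25 and Ier3 at -0.51 did not. Whether the motif goes with the direction was not tested. The full TGACGTCA stood in 2 of the 21 (9.52%), against 3.54% of tested genes, and the AP-1 sequence TGANTCA in 1 (4.76%), against 6.11%. The CArG box, the site of serum response factor, was also found in 1 window (Egr2), against 1.62% of tested genes, and the Egr site GCGTGGGCG in 1 (Maff), against 1.37%, with both strands read for each motif. TGACGTCA contains TGACG, so these counts overlap, and a match is a description of the letters in a short window. Sites more than 250 bases before the gene start were not searched, and Egr1 was not among the 21 genes with an entry. The counts therefore cannot show that a gene lacks a site, that of serum response factor included.

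The other immediate early transcription factors lay mostly on the same side. Of 27 listed, all tested, 24 lay below 0 and 3 above, with 3 called, and the median log2 fold change was -0.30 beside 0.00 for all genes. With the replicate block 7 of the 27 passed, all lower, where 0.25% of all genes did. All KO-labelled libraries lay below all WT libraries for 14 of the 27, against 8.88% of genes tested. This list and those below were chosen with earlier results of these data known. Such counts therefore describe the members and are not separate evidence. Fosb, an AP-1 subunit, had 592, 563 and 376 normalised reads in the KO-labelled libraries, against 1154, 1225 and 725 in the WT libraries (log2 fold change -1.01 ± 0.19, adjusted p = 0.09, and 0.000295 with the block). Junb, another AP-1 subunit, had 1047, 1008 and 789 normalised reads in the KO-labelled libraries, against 1667, 1792 and 1219 in the WT libraries (-0.71 ± 0.13, adjusted p = 0.09, and 0.00241 with the block). In both genes KO 3 was the lowest KO-labelled and WT 3 the lowest WT library, and the groups do not overlap. Npas4, a neuronal activity factor, had 1304, 1223 and 708 normalised reads in the KO-labelled libraries, against 2654, 2438 and 1362 in the WT libraries (-0.99 ± 0.23, adjusted p = 0.129, and 0.000202 with the block). Here WT 3 lay only just above KO 1, while within each number the KO-labelled library was at about the same distance below the WT library, so that Npas4 had the smallest blocked p of all genes. Nr4a3, a relative of Nr4a1, had 767, 1013 and 718 normalised reads in the KO-labelled libraries, against 1169, 1446 and 1099 in the WT libraries (-0.58 ± 0.12, adjusted p = 0.0984, and 0.00867 with the block). At the other end of the list were Klf6 (0.14), Myc (0.14) and Egr3 (0.27), above 0, with Egr2 and Jund at -0.05 and -0.01. DESeq2 on the recovered reads called 7 of the 27, where it called 1.25% of the 11691 genes it gave an adjusted p. On each of the other lists it called at most 4 members. Unless another tool or the block is named, calls at 4 h are those of limma.

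**Figure D2:**
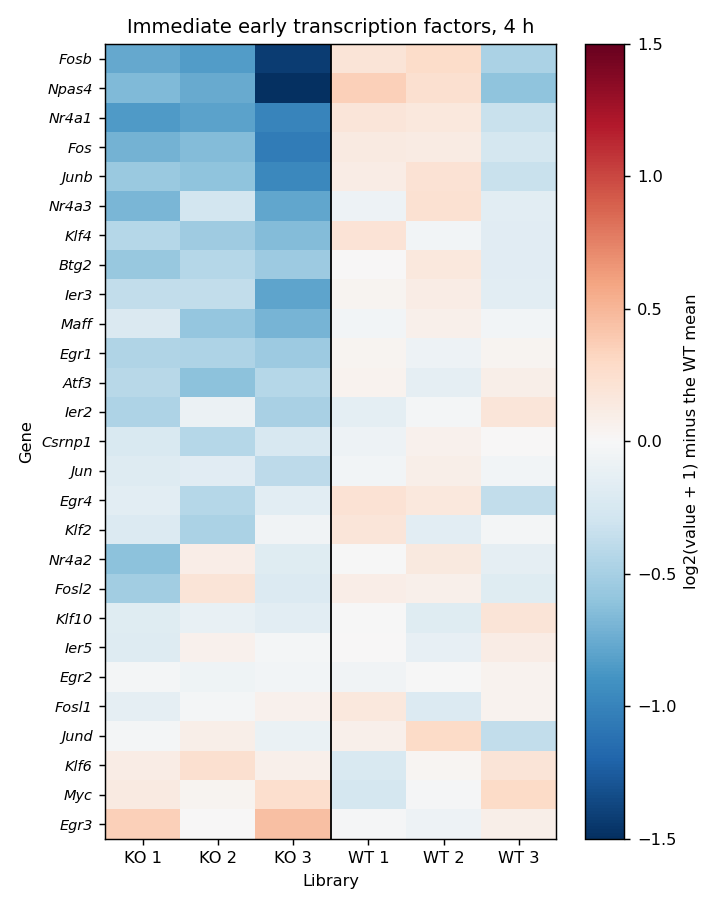
Each row is an immediate early transcription factor and each column a library, KO-labelled on the left; the colour is log2(value + 1) minus the mean of the 3 WT libraries, blue below and red above it. Rows run from Fosb at -1.01 to Egr3 at 0.27, and the deepest blue stands in KO 3 for Fosb and Npas4, with WT 3 the lowest WT library in the same rows.

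Genes that activity and growth factor signals induce as effectors lay lower as well, with no call. Of 32 tested, 24 lay below 0 and 8 above, and the median was -0.20. DESeq2 called 3 of the 32, against 1.25% of the genes it gave an adjusted p. Dusp1, a phosphatase that switches off MAP kinases, had 442, 536 and 446 normalised reads in the KO-labelled libraries, against 691, 669 and 644 in the WT libraries (log2 fold change -0.50 ± 0.09, adjusted p = 0.09). Gadd45b, a stress-induced regulator of growth and DNA demethylation, had 235, 254 and 253 normalised reads in the KO-labelled libraries, against 406, 406 and 318 in the WT libraries (-0.60 ± 0.12, adjusted p = 0.0909). Arc, a synaptic protein induced by activity, had 361, 281 and 367 normalised reads in the KO-labelled libraries, against 424, 559.7 and 471 in the WT libraries (-0.53 ± 0.13, adjusted p = 0.131). The groups of these 3 genes do not overlap. Gem, a small GTPase of calcium channels and the cytoskeleton, had -0.43 ± 0.12, whereas Homer1, Plk2, Nptx1 and Nptx2, further activity-induced genes, lay at 0.05, 0.07, 0.09 and 0.18. Circadian clock genes, some of which share CREB as an activator, were evenly spread, 11 above and 10 below 0 with a median of 0.01; Per1 had -0.21 ± 0.09 (adjusted p = 0.317). Glucocorticoid-induced genes had 6 above and 8 below 0 and a median of -0.03, with the metabolic kinase Pdk4 at -0.55 ± 0.11 (adjusted p = 0.0935) and 165, 167 and 189 against 251, 260.1 and 252 normalised reads in KO-labelled against WT libraries.

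**Figure D3:**
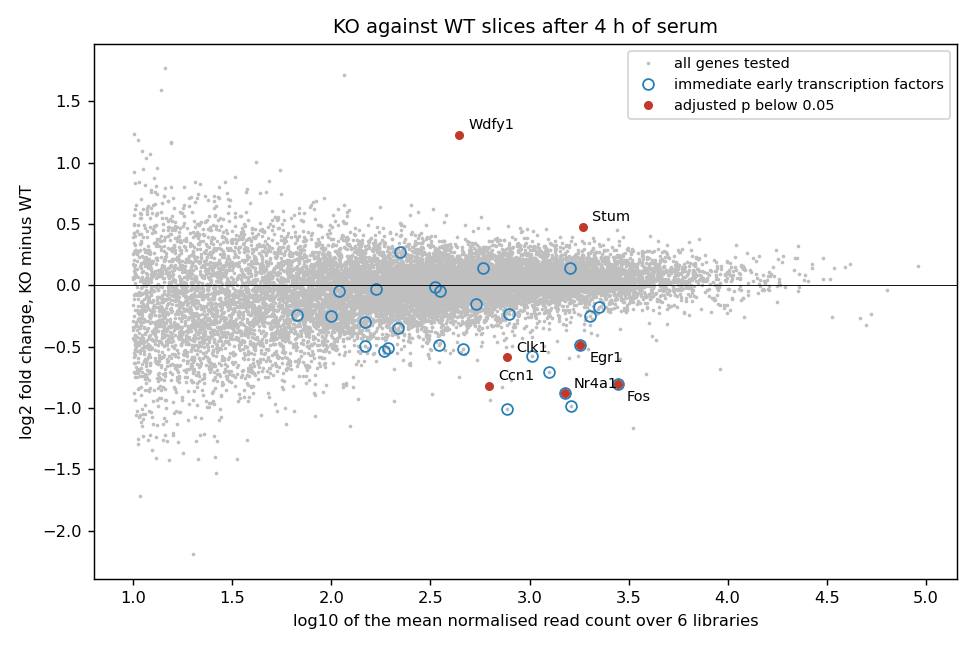
Log2 fold change, KO-labelled minus WT (vertical axis), against the log10 mean normalised read count (horizontal axis) of the 15181 genes tested, with the 7 called genes in red and the 27 immediate early transcription factors as blue rings. Wdfy1 at 1.23 stands apart from genes of like level, and 24 of the 27 rings lie below 0.

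Wdfy1 showed the largest change of the 7. It encodes a protein with WD repeats and a FYVE domain that sits on early endosomes and, in mouse cells, helps Tlr3 and Tlr4 recruit their adaptor Ticam1. It had 615, 594 and 646 normalised reads in the KO-labelled libraries, against 236, 261 and 297 in the WT libraries. The lowest KO-labelled library was 594 and the highest WT library 297. The level in KO-labelled slices was 2.34 times that in WT slices, a log2 fold change of 1.23 ± 0.10 (SE; adjusted p = 0.000174). It is the one gene that passed without any 1 library (adjusted p = 4.62e-05 to 0.00661), and without both libraries that hold Xist (0.0025). Wdfy1 (ENSMUSG00000073643, chr1:79702262-79776143, minus strand) overlaps Mrpl44 and Gm10555 on the opposite strand, whose reads cannot be told apart from it where they overlap. Mrpl44, a mitochondrial ribosomal protein, had 219, 198 and 222 against 203, 196 and 199 normalised reads in KO-labelled against WT libraries (0.10 ± 0.11, adjusted p = 0.747). Of 9 tested genes within 1 Mb, 4 lay above and 5 below 0, the median was -0.02 and 0 passed.

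The pathway around Wdfy1 was spread evenly about 0. Of 24 tested genes of Toll-like receptor signalling and the Wdfy family, 12 lay above 0 and 12 below, with a median of 0.01 and Wdfy1 as the one call. Its relatives Wdfy2 and Wdfy3 had log2 fold changes of -0.04 and 0.12. Ticam1, the adaptor, had 126, 96.2 and 129 normalised reads in the KO-labelled libraries, against 76.9, 93.6 and 80.3 in the WT libraries (0.47 ± 0.17, adjusted p = 0.244), with KO 2 only just above WT 2. The receptors Tlr3 and Tlr4 lay at -0.13 and -0.41, the adaptor Tirap at -0.42 ± 0.20 (adjusted p = 0.377) and the kinase Irak1 at -0.23 ± 0.08 (adjusted p = 0.264). Interferon response genes, which this pathway can induce, had 24 of 30 below 0 and a median of -0.12, with 0 called. That median ranged from -0.36 to 0.04 when 1 library was left out. Cytokines, chemokines and NF-kB targets had 25 of 34 below 0, a median of -0.24 (-0.35 to -0.15 when 1 library was left out) and 0 called, led by the adhesion molecule Vcam1 with 723, 752 and 663 normalised reads in the KO-labelled libraries, against 924, 924 and 911 in the WT libraries (-0.37 ± 0.08, adjusted p = 0.0935). The NF-kB regulator Nfkbiz had -0.51 ± 0.15 and the cytokine signal inhibitor Socs3 -0.32 ± 0.10, with groups that do not overlap.

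Stum, a neuronal membrane protein whose fly relative serves mechanical sensing, was the other gene to rise. It had 2129, 2219.5 and 2133 normalised reads in the KO-labelled libraries, against 1499, 1627 and 1533 in the WT libraries, and every KO-labelled library lay above every WT library. The log2 fold change was 0.48 ± 0.07 (SE; adjusted p = 0.0161), that is 1.39 times the WT mean. It missed the threshold without KO 3 (0.0554), WT 1 (0.191), WT 2 (0.0617) or WT 3 (0.0771). Stum lies at ENSMUSG00000053963, chr1:180432387-180483504, minus strand, overlapped on its own strand by Gm37984. Its nearest tested neighbours Itpkb and Parp1 had -0.11 and 0.05, and 0 of the 28 tested genes within 1 Mb passed.

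The 8 genes next in line above 0 did not pass in limma without the block, whereas DESeq2 on the recovered reads called each of them, at adjusted p between 0.000912 and 0.00298. DESeq2 called 1.25% of genes, and the 8 were picked by their limma p in the same libraries, so its calls are not separate evidence. Lrfn2, a synaptic adhesion protein, had 416, 378 and 394 normalised reads in the KO-labelled libraries, against 247, 279.8 and 245 in the WT libraries (log2 fold change 0.62 ± 0.10, adjusted p = 0.0525, and 0.0451 with the block). Sv2b, a synaptic vesicle protein, had 1826, 1801 and 1978 normalised reads in the KO-labelled libraries, against 1549, 1380.5 and 1351 in the WT libraries (0.39 ± 0.07, adjusted p = 0.0909). Map1a, a dendritic microtubule protein, had 5422, 4752 and 4800.3 normalised reads in the KO-labelled libraries, against 4085, 3770.0 and 3753 in the WT libraries (0.37 ± 0.07, adjusted p = 0.0909, and 0.0337 with the block). The groups of these 3 genes do not overlap. The small GTPase Rhou (0.46 ± 0.08), the protocadherin Pcdh1 (0.39 ± 0.07), the planar polarity family protein Prickle2 (0.36 ± 0.07), the Deltex-family ubiquitin ligase Dtx4 (0.36 ± 0.07) and Plcxd2 (0.33 ± 0.06) had adjusted p between 0.0848 and 0.0909. Others that limma called with the block and not without it included the kinesin Kif21b, a microtubule motor, at 12354, 12842 and 11533 normalised reads in the KO-labelled libraries, against 9704, 9822 and 9632 in the WT libraries (0.33 ± 0.07, adjusted p = 0.0909, and 0.0451 with the block). Creg2 had 0.43 ± 0.10 (adjusted p = 0.131, and 0.0447 with the block), and Btbd3, which orients dendrites of cortical neurons, 0.41 ± 0.12 (0.176, and 0.0451 with the block). The groups of Btbd3 overlap, KO 3 lying below WT 2, and those of Kif21b and Creg2 do not.

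Excitatory neuron, pan-neuronal and receptor genes lay mostly above 0 with 0 calls; with the replicate block, which called 0.25% of all genes, 2 excitatory markers (Tbr1 and Slc17a7), 1 pan-neuronal gene (Map1a) and 1 receptor subunit (Grik3) passed as higher. Cortical excitatory neuron markers had 23 of 28 above 0 and a median of 0.20 (0.13 to 0.29 when 1 library was left out), and their summed level was 74123 to 77134 normalised reads in the KO-labelled libraries, against 63841 to 69848 in the WT libraries. Tbr1, a T-box factor of early-born cortical neurons, had 1290.2, 1568 and 1347 normalised reads in the KO-labelled libraries, against 913, 1035 and 1109 in the WT libraries (0.46 ± 0.09, adjusted p = 0.0909, and 0.0451 with the block). Slc17a7, which loads glutamate into vesicles, had 3036, 2784 and 3761 normalised reads in the KO-labelled libraries, against 2477, 2018 and 2477 in the WT libraries (0.45 ± 0.11, adjusted p = 0.129, and 0.0337 with the block). The groups do not overlap for either gene. Neurod2, a factor of neuronal differentiation, had 0.39 ± 0.08. Markers of deep cortex were not uniform: Foxp2 lay at -0.23, Tle4 at -0.04 and Bcl11b at 0.02. Pan-neuronal genes had 27 of 30 above 0 (median 0.13) and glutamate and GABA receptor subunits 28 of 36 (median 0.10, and 0.041 to 0.12 when 1 library was left out), with the kainate receptor subunit Grik3 at 0.38 ± 0.08 (adjusted p = 0.0909, and 0.0451 with the block) and the GABA receptor subunit Gabrb2 at 0.31 ± 0.08. All KO-labelled libraries lay above all WT libraries for 8 of 28 excitatory markers, 8 of 30 pan-neuronal genes and 8 of 36 receptor subunits, against 10.1% of genes tested. DESeq2 called 4, 1 and 1 members of these 3 lists, against 1.25% of the genes it gave an adjusted p. GABAergic interneuron markers (13 above and 12 below 0) and striatal markers (7 and 15) had medians of 0.00 and -0.05.

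Ccn1, a secreted matrix-associated protein that binds integrins and is induced by serum and by YAP, was the one gene called among targets of serum response factor, actin and YAP. It had 448, 479.9 and 423 normalised reads in the KO-labelled libraries, against 809.7, 678 and 912 in the WT libraries. The highest KO-labelled library was 480 and the lowest WT library 678, so the groups stood apart. The log2 fold change was -0.82 ± 0.11 (SE; adjusted p = 0.0128), 0.567 times the WT mean, and it missed the threshold without WT 1 (0.116) or WT 3 (0.0573). Ccn1 lies at ENSMUSG00000028195, chr3:145646976-145649981, minus strand. Of the 25 listed targets tested, 19 lay below 0 and the median was -0.12 (-0.16 to -0.081 when 1 library was left out); with the replicate block 2 passed, Ccn1 and Flna, against 0.25% of all genes. The actin crosslinker Flna had 3947, 3211 and 3588 normalised reads in the KO-labelled libraries, against 4898, 4269.6 and 5124 in the WT libraries (-0.41 ± 0.09, adjusted p = 0.0935, and 0.0279 with the block). Calponin Cnn2 had -0.34 ± 0.12, the related matricellular gene Ccn2 -0.28 and Srf itself -0.13, while Actb, Actg1 and Amotl2 lay at 0.05, 0.01 and 0.17.

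The hyaluronan genes, the system in which TSG-6 acts, held no call. Of 27 tested, Tnfaip6 included, 21 lay below 0 and 6 above, with a median of -0.17 (-0.22 to -0.087 when 1 library was left out, nearest 0 without KO 1). Itih2, which encodes a heavy chain that TSG-6 transfers, had 30.7, 61.8 and 24.0 normalised reads in the KO-labelled libraries, against 90.2, 70.0 and 79.3 in the WT libraries (-1.13 ± 0.29, adjusted p = 0.153). Its groups do not overlap, although KO 2 came close to WT 2. Ptx3, a pentraxin that TSG-6 binds in hyaluronan matrices, had 123, 186 and 162 normalised reads in the KO-labelled libraries, against 188, 209 and 215 in the WT libraries (-0.40 ± 0.15, adjusted p = 0.271). The synthases Has1, Has2 and Has3 lay at -0.20, -0.53 and 0.15, the hyaluronidases Hyal1 and Hyal2 at -0.51 and 0.21, the receptor Cd44 at -0.01, and the proteoglycans Vcan, Ncan and Bcan at -0.14, -0.04 and -0.23. Ambp, Itih1 and Habp2 were not analysed here.

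Matrix genes beyond hyaluronan lay lower with 0 calls, or 1 with the replicate block, Prelp, where 0.25% of all genes passed. DESeq2 called 2 of 48 collagens and matrix glycoproteins, 1 of 9 small leucine-rich proteoglycans and 2 of 27 endothelial and mural markers. It called 0 on the protease, TGF-beta and meningeal lists, and 1.25% of all genes it gave an adjusted p. Collagens and matrix glycoproteins had 42 of 48 below 0 and a median of -0.22. Sparc, a collagen-binding glycoprotein, had 4606, 4217 and 4354 normalised reads in the KO-labelled libraries, against 5755, 5076 and 5549 in the WT libraries (-0.31 ± 0.07, adjusted p = 0.105), and the groups do not overlap. Fn1, fibronectin, had 1878, 1995 and 1468 normalised reads in the KO-labelled libraries, against 2417, 2054 and 2485 in the WT libraries (-0.39 ± 0.11, adjusted p = 0.166), with KO 2 only just below WT 2. Small leucine-rich proteoglycans, which coat collagen fibrils, had 8 of 9 below 0 and a median of -0.59 (-0.76 to -0.32 when 1 library was left out, nearest 0 without KO 3). Among them Prelp had 45.0, 51.2 and 65.0 normalised reads in the KO-labelled libraries, against 101, 112 and 124 in the WT libraries (-1.06 ± 0.19, adjusted p = 0.0865, and 0.039 with the block). Ogn had 29.6, 60.9 and 29.7 normalised reads in the KO-labelled libraries, against 65.4, 85.7 and 79.3 in the WT libraries, 0.501 times the WT mean (adjusted p = 0.166). Matrix proteases and their inhibitors had 21 of 29 below 0 with a median of -0.14 (-0.22 to -0.11 when 1 library was left out), led by the membrane protease Mmp14 at -0.31 ± 0.08, and genes of TGF-beta and BMP signalling 22 of 32 with -0.11 (-0.15 to -0.055 when 1 library was left out). Markers of the cells that make much of this matrix also lay mostly below 0, with 0 calls. The meningeal list shares Dcn, Lum and Ogn with the proteoglycans and Col1a1, Col1a2, Col3a1 and Lama1 with the matrix list. Its values are therefore partly those of the same genes. Meningeal fibroblast markers had 18 of 21 below 0, a median of -0.30 (-0.49 to -0.21 when 1 library was left out) and a summed level of 8101 to 10626 normalised reads in the KO-labelled libraries, against 9751 to 11902 in the WT libraries. Endothelial and mural markers had 26 of 27 below 0, a median of -0.34 and a summed level of 7669 to 7879 normalised reads in the KO-labelled libraries, against 8695 to 10366 in the WT libraries. Their part in the matrix and immediate early values was not tested.

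Clk1 was the remaining call. It encodes a kinase that phosphorylates SR splicing factors, and much of its transcript is stored in the nucleus with retained introns. It had 668, 539 and 639 normalised reads in the KO-labelled libraries, against 976, 916 and 868 in the WT libraries, and no KO-labelled library reached the lowest WT value of 868. The log2 fold change was -0.58 ± 0.09 (SE; adjusted p = 0.0448), 0.667 times the WT mean. This is the call nearest the threshold, and it was lost without KO 3 (0.0669), WT 1 (0.303), WT 2 (0.142) or WT 3 (0.0771). Clk1 lies at ENSMUSG00000026034, chr1:58410189-58424066, minus strand, and its nearest tested neighbours Bzw1 and Ppil3 had -0.03 and -0.01. The called Wdfy1 and Stum lie on chromosome 1 too, which holds 921 of the 15181 genes tested. Its relative Clk4 had 346, 363 and 379.9 normalised reads in the KO-labelled libraries, against 498, 505 and 499 in the WT libraries (-0.46 ± 0.09, adjusted p = 0.09), with groups that do not overlap, and Clk2 and Clk3 had -0.20 and -0.28. Among 30 Clk kinases and splicing regulators many of whose transcripts retain introns, 27 lay below 0 and the median was -0.16. All KO-labelled libraries lay below all WT libraries for 15, against 8.88% of genes tested. The list holds Clk1 and was chosen with earlier results of these data known, so these counts are not separate evidence. With the replicate block 2 of the 30 passed, Clk1 and Ccnl2, where 0.25% of all genes did. Cyclins of the splicing speckles, Ccnl1 and Ccnl2, lay at -0.38 and -0.49 (blocked adjusted p = 0.039 for Ccnl2), whereas the SR proteins Srsf3 and Srsf4 lay at 0.04 and 0.00.

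Noncoding transcripts leaned lower too. Of 17 nuclear long noncoding RNAs tested, 14 lay below 0 and 0 were called, with a median of -0.23 (-0.38 to -0.24 when 1 library was left out). With the replicate block 3 passed as lower, Malat1, Miat and Firre, where 0.25% of all genes passed in either direction. Malat1, a speckle RNA, had 573, 388 and 608 normalised reads in the KO-labelled libraries, against 1151, 689 and 954 in the WT libraries (-0.83 ± 0.18, adjusted p = 0.0965, and 0.00352 with the block). Neat1, the scaffold of paraspeckles, had 95.4, 71.5 and 109.5 normalised reads in the KO-labelled libraries, against 201, 139 and 151 in the WT libraries (-0.83 ± 0.19, adjusted p = 0.116). Meg3, an imprinted RNA, had 9542, 3645 and 8662 normalised reads in the KO-labelled libraries, against 12735, 8345 and 11704 in the WT libraries (-0.68 ± 0.27, adjusted p = 0.275). In all 3 KO 2 was the lowest of the 6 libraries, and WT 2 the lowest WT library. Miat, an RNA of nuclear bodies in neurons, had 2861, 1471 and 2625 normalised reads in the KO-labelled libraries, against 3869.8, 2613 and 3785 in the WT libraries (-0.60 ± 0.20, adjusted p = 0.221, and 0.0154 with the block; DESeq2 gave 0.513). Firre, an X-linked RNA, had 404, 219 and 379.9 normalised reads in the KO-labelled libraries, against 588, 449 and 603 in the WT libraries (-0.75 ± 0.19, adjusted p = 0.143, and 0.0269 with the block). Gm26917 had -0.59 ± 0.12 (adjusted p = 0.0935, and 0.00394 with the block). KO 2 and WT 2 were the lowest of their groups in these 3 as well. The groups overlap for Meg3 and Miat and not for Malat1, Neat1 or Firre. By annotation class, 142 of 179 processed transcripts (79.3%), 201 of 320 lincRNAs (62.8%) and 135 of 208 antisense genes (64.9%) lay below 0, against 6734 of 13990 protein-coding genes (48.1%). The mitochondrially encoded genes had 8 of 10 below 0 and a median of -0.14 (-0.23 to 0.0038 when 1 library was left out, above 0 without KO 2), again with KO 2 lowest: mt-Cytb had 32526, 24642 and 35195 normalised reads in the KO-labelled libraries, against 36068, 36138 and 37286 in the WT libraries (-0.26 ± 0.11, adjusted p = 0.3). Without KO 2 the number of called genes was 211 (1.39%), in place of 7. The series text gives RNA integrity numbers above 9 for all preparations, without values by library, and the part of RNA quality in these values was not tested.

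Glial and ventricular markers lay below 0 as groups, with 0 limma calls. DESeq2 called 3 of 32 radial glia and astrocyte markers and 4 of 22 cilia and ependymal markers, against 1.25% of the genes it gave an adjusted p. All 32 radial glia and astrocyte markers had negative log2 fold changes, from -0.43 (Ntsr2) to -0.00 (Hes1), with a median of -0.20 and a summed level of 86179.6 to 88276 normalised reads in the KO-labelled libraries, against 93801 to 105235 in the WT libraries. Notch1 had -0.34 ± 0.08 (adjusted p = 0.131) and the glutamate transporter Slc1a3 9324, 9359.8 and 8892 normalised reads in the KO-labelled libraries, against 11084, 10529 and 10567 in the WT libraries (-0.22 ± 0.06, adjusted p = 0.168). Motile cilia and ependymal markers had the lowest median of the lists described, -0.62, with 20 of 22 below 0 and a summed level of 2636 to 3065 normalised reads in the KO-labelled libraries, against 3235 to 3873 in the WT libraries. Their master factor Foxj1 had 407, 411 and 323 normalised reads in the KO-labelled libraries, against 515, 507 and 662 in the WT libraries (-0.56 ± 0.12, adjusted p = 0.105). The axonemal gene Cfap44 had 101, 77.6 and 82.1 normalised reads in the KO-labelled libraries, against 141, 135 and 178 in the WT libraries (-0.79 ± 0.16, adjusted p = 0.0935). Both have groups that do not overlap, WT 3 being the highest library in each. Lrrc23, a radial spoke protein of cilia, had 167, 109 and 148 normalised reads in the KO-labelled libraries, against 243, 251 and 317 in the WT libraries (-0.94 ± 0.16, adjusted p = 0.081, and 0.0337 with the block), and Crocc2, of the ciliary rootlet family, 119.6, 45.9 and 74.1 normalised reads in the KO-labelled libraries, against 165, 133 and 204 in the WT libraries (-1.14 ± 0.27, adjusted p = 0.131). Choroid plexus markers were scarce: 7 of 16 listed were tested, 5 below 0, and Ttr did not reach the minimum. Cell cycle genes, which dividing progenitors carry, had 37 of 40 below 0 and a median of -0.20 (-0.32 to -0.10 when 1 library was left out), with Mcm2 at -0.37 ± 0.11 and Top2a at -0.33 ± 0.10. Their summed level was 13493 to 18821 normalised reads in the KO-labelled libraries, against 17397 to 18520.0 in the WT libraries, KO 2 lying above every WT library. Microglia markers (18 of 26 below 0, median -0.07, -0.18 to 0.018 when 1 library was left out and above 0 without WT 1) and oligodendrocyte precursor markers (12 of 14, median -0.14, -0.20 to -0.079 when 1 library was left out) also held 0 calls.

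**Figure D4:**
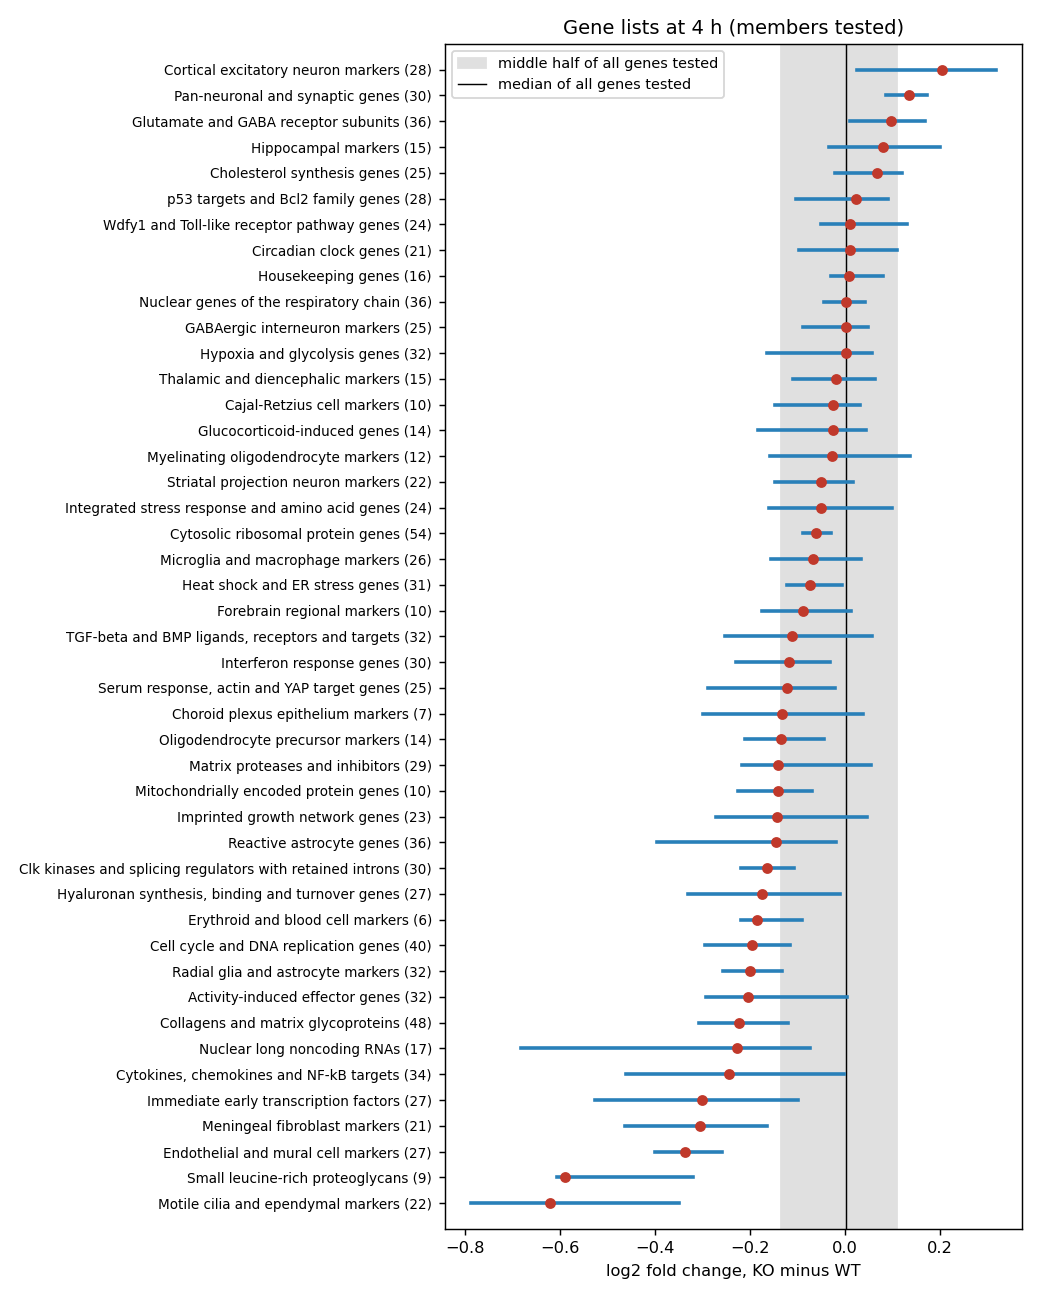
Median log2 fold change, KO-labelled minus WT, of the tested members of each gene list (red point, number of members in brackets) with the middle 50% of its members (blue line); the grey band and black line are the same for all 15181 genes. Excitatory neuron and pan-neuronal genes lie at the top, with medians of 0.20 and 0.13, and ependymal, proteoglycan, vascular and immediate early lists at the bottom, down to -0.62.

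Some programmes had medians close to that of all genes. Housekeeping genes had 8 above and 8 below 0 (median 0.01), nuclear genes of the respiratory chain 19 and 17 (0.00), hypoxia and glycolysis genes 16 and 16 (0.00), and p53 targets with the Bcl2 family 15 and 13 (0.02). The glycolytic enzyme Pfkp had 4414, 2764 and 3952 normalised reads in the KO-labelled libraries, against 5879.9, 3995 and 5189.6 in the WT libraries (-0.45 ± 0.15, adjusted p = 0.23, and 0.0154 with the block; DESeq2 gave 0.471), with groups that overlap. Other lists lay a little to 1 side, with 0 calls without the block. Cholesterol synthesis genes had 17 of 25 above 0 with a median of 0.07, and Mvd, an enzyme of the mevalonate pathway, had 1013, 922 and 938 normalised reads in the KO-labelled libraries, against 819, 765 and 634 in the WT libraries (0.38 ± 0.09, adjusted p = 0.14). Ribosomal protein genes had 50 of 54 below 0, with a median of -0.06 (-0.098 to -0.005 when 1 library was left out). Heat shock and endoplasmic reticulum stress genes had 24 of 31 below 0 with a median of -0.07 (-0.087 to -0.03 when 1 library was left out). Hspa1b, an inducible chaperone, varied widely within groups, with 337, 263 and 635 normalised reads in the KO-labelled libraries, against 871, 336 and 1352 in the WT libraries (-0.94 ± 0.39, adjusted p = 0.301, and 0.0451 with the block). The groups overlap, and libraries numbered 3 were the highest of each. In all, 34 of the 47 lists had a median below 0, and 28 kept the sign of their median under every alternative tried.

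The 24 h libraries give the same 7 genes in other slices, with Het and not WT controls and in a separately made table, so values are set side by side and the difference between times was not tested. One of them, labelled KO female 2, held 826 Ddx3y and 0 Xist counts, and so does not match its sex label; it is kept, and values without it follow. At 24 h edgeR called 0 of 16013 genes (0%), with 1060 at an unadjusted p under 0.05 (6.62%), and DESeq2 called 10 (0.0498%). Wdfy1 had 46.8, 44.8 and 49.6 RPM (reads divided by the library total and scaled as CPM) in the KO-labelled 4 h libraries, against 18.5, 20.1 and 23.4 in the WT 4 h libraries. After 24 h it had 20.8 ± 0.929 RPM in KO-labelled (range 19.3 to 22.1; SD, n = 8) and 19.6 ± 1.46 in Het slices (18.2 to 22.4; n = 6). Both genotypes at 24 h thus lay near the WT slices of 4 h, a reading across tables that are scaled in unlike ways. The log2 fold change at 24 h was 0.09 ± 0.06 (SE; edgeR adjusted p = 0.836). Stum had 164 ± 2.85 RPM in KO-labelled and 121 ± 4.05 in WT slices at 4 h (SD, n = 3 each), and 140.5 ± 11.9 in KO-labelled and 136 ± 15.0 in Het slices at 24 h (0.05 ± 0.07, adjusted p = 0.933).

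Of the 5 genes that were lower at 4 h, all but Clk1 lay above 0 at 24 h, and none passed. Nr4a1 had 127 ± 48.8 RPM in KO-labelled and 70.6 ± 23.5 in Het slices, a log2 fold change of 0.85 ± 0.25 (SE; edgeR adjusted p = 0.738). KO-labelled libraries ranged from 57.3 to 212 and Het libraries from 50.9 to 115, so the groups overlap, and 5 of the 8 KO-labelled libraries lay above all Het libraries. Fos had 0.58 ± 0.22 and Egr1 0.35 ± 0.14 (adjusted p = 0.738 each), Ccn1 0.24 ± 0.15 (0.814) and Clk1 -0.01 ± 0.09 (0.994). With no filter on low counts, edgeR called 263 genes at 24 h, Nr4a1, Fos and Egr1 among them as higher. Their log2 fold changes hardly moved in that fit (0.84, 0.57 and 0.35). DESeq2 called none of these, with adjusted p of 0.727 for Nr4a1, 0.938 for Fos and 0.939 for Egr1. Of the 7 genes, 3 had the same sign at both times. Of the 27 immediate early transcription factors, 25 lay above 0 at 24 h with a median of 0.30, 8 had an unadjusted p under 0.05 and 0 passed. Without the library labelled KO female 2, 24 lay above 0 with a median of 0.25, Nr4a1 had 0.83, Fos 0.53 and Egr1 0.27, and Wdfy1 had 0.07. Tnfaip6 itself had 6.60 ± 1.17 RPM in KO-labelled and 4.88 ± 1.08 in Het slices (0.45 ± 0.16, adjusted p = 0.738).

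**Figure D5:**
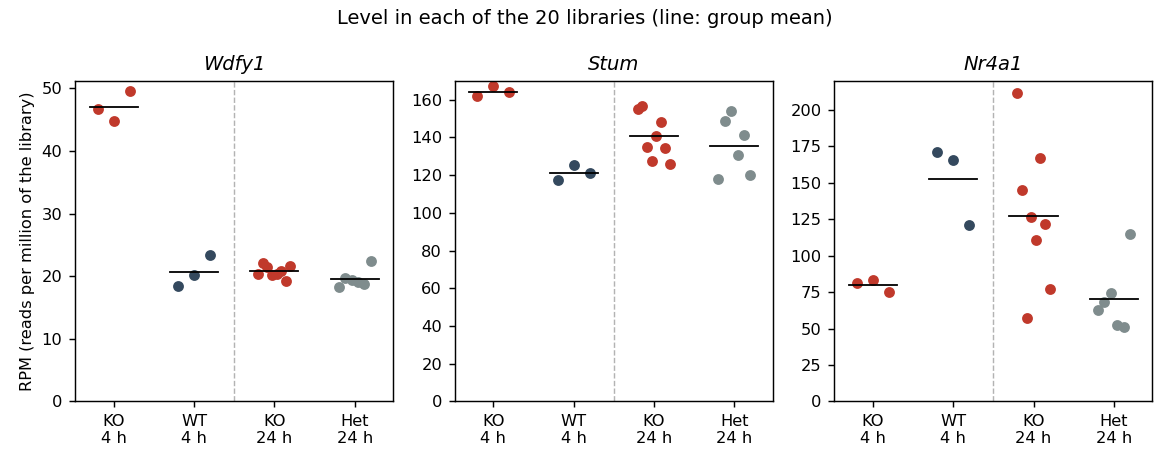
Level in RPM (vertical axis, linear from 0) for Wdfy1, Stum and Nr4a1 in each of the 20 libraries, with KO-labelled and WT at 4 h left of the dashed line and KO-labelled and Het at 24 h right of it. Black lines are group means. RPM are scaled by the library total at 4 h and by a TMM-scaled total at 24 h. The 3 KO-labelled libraries at 4 h stand apart for Wdfy1, at 44.8 to 49.6, while the 24 h groups of all 3 genes overlap.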

How the data were processed

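RNA-seq libraries from serum-treated forebrain slices were compared, 3 KO-labelled with 3 WT, grouped by titles and genotype fields. Per the submitters' processing notes, the tools were TopHat2, HTSeq and DESeq2 1.38.3, on GRCm38 (mm10); neither strand setting nor annotation release is given in the sources here. At 4 h the deposited values are a normalised signal: reads of 19722 genes over 1 size factor per library. Dividing by the worth of 1 read gave whole numbers for 100% of values (tolerance 0.05), 11411532 to 15030171 reads per library. At 24 h the deposited values are unscaled counts, 8482933 to 18051300 per library. Without strand, reads of overlapping genes cannot be told apart.

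At 4 h, limma 3.58.1 (R 4.3.3; intensity trend, two-sided) was fitted to log2(value + 1) for genes averaging at least 10 over the libraries, so fold changes of low genes are understated. It was the main test because the values are not counts; the count test, edgeR on recovered reads, called 7 genes, the same 7. The titles number the libraries 1 to 3 in both groups, and same-numbered libraries deviated together from their group means over all genes tested (correlations 0.264, 0.140 and 0.175), so a fit with the number as a block is given where it changes a call. No label says what a number shares. Both libraries numbered 1 hold Xist, and without 6 sex-linked genes, left out after the data were seen, the correlations were 0.0556, 0.0849 and 0.12. Libraries of unlike number correlated at -0.218 to 0.0638 over all genes tested, and at -0.163 to 0.066 without those 6 genes. Without them KO 1 correlated more with WT 2 (0.066) than with WT 1 (0.0556). At 24 h, edgeR 4.0.16 quasi-likelihood with TMM tested KO minus Het averaged over sexes. Adjusted p-values are Benjamini-Hochberg over all genes tested, threshold 0.05. Library pairs were compared by chi-square of their counts over genes; no pair agreed within sampling noise (at least 3.53 per degree of freedom). Of the 4 h identifiers, 19680 matched a symbol; coordinates are GENCODE vM21 (1-based). Promoters are RefSeq entries.

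Named are Tnfaip6, all called genes, the 8 higher and 8 lower next by p (mean at least 100), the 6 largest changes in each direction (unadjusted p under 0.05, mean at least 50), up to 10 genes in each direction called in limma with the block and not without it, up to 4 members with the smallest p per list, the closest neighbours and sex-linked genes; other list members are given to show a list's range, and a few genes that this rule takes are not reported here. The members and the 47 lists were chosen with earlier results of these data known. Alternatives were other pseudocounts, filters, scalings, tools, a replicate block and leaving out each library. Tests were run on simulated data first.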

Additional observations from a re-analysis of the deposited data

Results flagged for a closer look

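Examined were 16 groups of 24 h values, the 8 KO-labelled and the 6 Het libraries for each of 7 called genes and Tnfaip6. Of these, 4 held a library far from the others, where chance gives about 1 in 20 for a single group. The groups share the same libraries and pool the sexes. They are not independent, so their count cannot be set against that rate. Het male 3 was the library far from the others for 3 genes. It had 84.5 CPM of Clk1, against 49.8 to 59.8 in the other Het libraries, 22.4 CPM of Wdfy1, against 18.2 to 19.7, and 115 CPM of Nr4a1, against 50.9 to 74.6. KO female 3 had 58.2 CPM of Ccn1, against 25.9 to 36.8 in the other KO-labelled libraries. Groups of 3 libraries, which include all those at 4 h, were not examined in this way.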

How the results depend on the processing

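At 4 h the number of called genes was 7, and edgeR, TMM scaling, other pseudocounts and a term for Xist reads gave the same 7. It was 146 with DESeq2 (84 higher, 62 lower), 12 with edgeR without a filter, 10 without a filter in limma, 8 at a mean of at least 50 and 28 with robust spread, which lost Fos (adjusted p = 0.0686). Without the libraries with Xist reads it was 1, Wdfy1. Leaving out 1 library gave 1 to 211, the highest without KO 2 and the lowest without WT 1. Among 3445 values for 192 named genes, 25 no longer passed the threshold and 159 passed it anew. Signs did change among genes that never passed. The median of the 5 sex-linked check genes ran from -3.18 to 2.35 when 1 library was left out. Of 846 list medians, 27 moved by more than 1 SD between libraries of the list's mean level.

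The replicate block gave 38 calls at 4 h (11 higher, 27 lower), the 7 included, so it added 31 to the limma calls, some of which DESeq2 made too. At 24 h a block on the number added 1. No label says that libraries of one number belong together, and KO-labelled libraries numbered 4 have no Het library of that number.

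At 24 h the count of 0 became 10 with DESeq2 and 263 without a filter on low counts. Fos, Nr4a1 and Egr1 passed as higher in that unfiltered edgeR fit and not in DESeq2, and the cause was not tested. Leaving out 1 library gave 0 to 2 calls, and log2 fold changes between -0.0762 and 0.101 for Clk1 and between -0.0059 and 0.0859 for Stum, so the sign of both depended on single libraries. Depth limits low genes: a gene at 0 reads is known only to lie below 3 reads, and floors cover counting error only.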

Other observations

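Further genes with an unadjusted p under 0.05 did not pass the adjusted threshold without the replicate block. Above 0, Mc4r, a melanocortin receptor, had 64.7, 80.3 and 63.9 normalised reads in the KO-labelled libraries, against 31.8, 43.4 and 49.8 in the WT libraries (log2 fold change 0.74 ± 0.22, SE; limma adjusted p = 0.185). Npbwr1, a neuropeptide receptor, had 70.2, 56.5 and 89.0 normalised reads in the KO-labelled libraries, against 56.6, 33.5 and 25.4 in the WT libraries (0.94 ± 0.28, adjusted p = 0.187), with WT 1 above KO 2. Kcnj12, a potassium channel, had 0.65 ± 0.21, the glutathione-degrading enzyme Chac1 0.68 ± 0.26 and Dnajc28 0.69 ± 0.18. Below 0, the X-linked Xlr3b had 47.2, 18.5 and 60.5 normalised reads in the KO-labelled libraries, against 37.1, 109 and 114 in the WT libraries (-1.02 ± 0.43, adjusted p = 0.312), and its groups overlap. At higher levels, Wsb1, a ubiquitin ligase adaptor, had 1166, 853 and 1034 normalised reads in the KO-labelled libraries, against 1549.5, 1355 and 1515 in the WT libraries (-0.54 ± 0.10, adjusted p = 0.09, and 0.0166 with the replicate block), and Fnbp4 had 919, 822 and 884 against 1248, 1131 and 1143 normalised reads in KO-labelled against WT libraries (-0.42 ± 0.08, adjusted p = 0.09, and 0.0432 with the replicate block), with no overlap in either.

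Growth and stress genes not yet described held 0 calls. Imprinted growth genes had 16 of 23 tested below 0 and a median log2 fold change of -0.14 (-0.18 to 0.015 when 1 library was left out, above 0 without WT 2), with Igf2, a growth factor made largely by meninges and vessels at this age, at -0.36 ± 0.12 and the noncoding H19 at -0.30 ± 0.11. Reactive astrocyte genes had 29 of 36 below 0 and a median of -0.14 (-0.24 to -0.11 when 1 library was left out), among them the small heat shock protein Hspb1 with 76.8, 70.6 and 137 normalised reads in the KO-labelled libraries, against 199, 124 and 211 in the WT libraries (-0.93 ± 0.25, adjusted p = 0.161), where KO 3 overlapped WT 2. Integrated stress response and amino acid genes had 11 above and 13 below 0, with Trib3 at 0.56 ± 0.27 and Psat1, a serine synthesis enzyme, at -0.20 ± 0.07. Erythroid and blood cell markers had 6 of 20 listed genes tested, 5 of them below 0, with the globin Hbb-bs at -0.33 ± 0.14.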
